A study of Mus musculus with 6 samples.

Results

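The 9 genes described here make the nuclear lamins and the enzymes that process prelamin A: Lmna, Lmnb1, Lmnb2, Fnta, Fntb, Rce1, Icmt, Zmpste24 and Narf. They were listed by symbol, without a filter on their values but with earlier results of these data known. All 9 were found among the 53735 genes of the table and passed the filter of a mean of at least 10 normalized counts. RNA came from mouse lung endothelial cells, sorted in turn on CD31 and ICAM2 beads and grown to confluence in primary culture without passage or treatment. There were 2 libraries from ZMPSTE24 wild type mice and 4 from ZMPSTE24 knockout mice; strain, age, sex and the deleted part of the gene are not given in the sources used here. Mice came from 2 cohorts, and no label ties a library to a cohort or to an animal of its own, so p-values speak only of spread among these libraries, which may be technical.

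Lamins are the filament proteins that line the inner nuclear membrane. Prelamin A ends in a CaaX box, a cysteine followed by a pair of mostly aliphatic residues and a final residue, to which farnesyltransferase (the subunits made by Fnta and Fntb) adds a lipid. The protease RCE1, or ZMPSTE24 itself, then trims the residues after the cysteine, ICMT methylates the cysteine, and ZMPSTE24 makes a second cut that removes the whole farnesylated tail and releases mature lamin A. B-type lamins (Lmnb1, Lmnb2) keep their farnesyl group, and lamin C, spliced from Lmna, has no CaaX box. NARF is a nuclear protein that binds the tail of prelamin A. In Hutchinson-Gilford progeria the second cut site is lost from the substrate, and in mice without Zmpste24 the enzyme is missing, so that farnesylated prelamin A persists.

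The coding ends of a lamin with a CaaX box and of one without it show what farnesyltransferase acts on. Each stretch below is the last 19 codons and the stop codon from the GENCODE M21 transcripts (GRCm38), 5′ to 3′, with the 4 codons of the CaaX box in capitals.
Lmna, lamin C (574 residues): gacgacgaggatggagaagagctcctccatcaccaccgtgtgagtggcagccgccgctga
Lmnb2, lamin B2 (615 residues): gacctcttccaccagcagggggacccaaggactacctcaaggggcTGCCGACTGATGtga
The Lmnb2 transcript ends in a CaaX box, and the lamin C transcript of Lmna ends without one. The table gives 1 value per gene, so prelamin A and lamin C transcripts cannot be told apart in the values of Lmna.

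Levels below are normalized counts unless another scale is named, that is, the reads of a gene divided by a size factor of the library. Libraries held 32699024 to 45613685 recovered reads. Across genes, wild type 1 and knockout 1 were set apart from the rest and are called the first set; wild type 2 and knockout 2, 3 and 4 are the second set. The split was read from the data, not from the labels. The 8 endothelial markers examined were detected in every library, at a sum of 82706 to 142312 in the first set and 29337 to 47611 in the second. The 8 leukocyte and macrophage markers summed to 1374 to 1644 and 25773 to 39876, the 6 fibroblast markers to 335349 to 392697 and 335056 to 365710, and the 6 smooth muscle and pericyte markers to 215560 to 235834 and 66773 to 125944. The 4 mesothelial markers summed to 26118 to 60852 and 8440 to 16591. The sets overlapped in Wt1 and Lrrn4. Wild type 1 was below wild type 2 in both, at 1101 against 1881 in Wt1 and 3478 against 4604 in Lrrn4. The 6 lung epithelial markers summed to 27.2 to 31.8 and 194 to 445. None of these markers was at 0 in all libraries. Col1a1 and Col1a2 made up most of the fibroblast sum. On the log2 scale the first set minus the second was 0.66 in Col1a1, 0.13 in Col1a2 and 0.45 in Thy1. It was -3.34 in Pdgfra, -2.08 in Lum and -1.03 in Dcn. Among smooth muscle and pericyte markers it was 1.46 in Tagln, 1.78 in Acta2, 2.47 in Myh11 and 2.93 in Cnn1. It was -0.66 in Pdgfrb and -0.05 in Des. The part of these markers in the results below was not tested. In such mixed RNA, fewer cells of a type and less RNA per cell cannot be told apart.

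Lmna, the gene of prelamin A and lamin C (chromosome 3, 88480147 to 88509956, minus strand, GRCm38), was the most abundant member, above 97.1% of tested genes in its mean. Wild type 1 and 2 held 22043 and 9807 normalized counts, and knockout 1 to 4 held 20235, 10213, 10157 and 10159. The libraries of the first set were 2.09-fold above those of the second, and the genotypes overlapped. Knockout 2, 3 and 4 had a coefficient of variation of 0.311%, below the 0.919% that counting alone gives at the highest of their read numbers.

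The B-type lamin genes varied in another way. Lmnb1 stood at 1148 (wild type 1), 1456 (wild type 2), 863 (knockout 1), 912 (knockout 2), 1295 (knockout 3) and 1807 (knockout 4) normalized counts, so that the knockout-labelled libraries held both the lowest values and the highest. Lmnb2 (chromosome 10, 80901203 to 80918245, minus strand) stood at 701, 795, 605, 620, 772 and 904 in the same libraries. Both genes ranked the 6 libraries in the same order, from knockout 1 through knockout 2, wild type 1, knockout 3 and wild type 2 to knockout 4, an order shared by 0.657% of tested genes. Neither gene separated the sets or the genotypes.

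The farnesyltransferase subunit genes included the member with the least spread. Fnta, the alpha subunit (chromosome 8, 25998722 to 26015650, minus strand), stood at 2484 and 2048 normalized counts in the wild type libraries and at 2816, 2053, 1981 and 2012 in knockout 1 to 4. Fntb, the beta subunit that binds the substrate (chromosome 12, 76765589 to 76921412, plus strand), stood at 906 and 955 in the wild type libraries and at 877, 878, 900 and 972 in knockout 1 to 4. Fntb had the smallest SD of the 9 genes on the log2 scale in both genotypes, 0.05 (n = 2) and 0.07 (n = 4). The Fntb exons share 257 nt with Churc1 on the same strand, whose own values were 179.7 to 242.4, so reads there may be split or lost.

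Of the genes that act after farnesylation, Rce1, the CaaX protease of the endoplasmic reticulum (chromosome 19, 4622591 to 4625641, minus strand), stood at 632 and 792 normalized counts in the wild type libraries and at 602, 856, 743 and 721 in knockout 1 to 4, lower in the first set than in the second. Icmt, the methyltransferase (chromosome 4, 152297227 to 152307121, plus strand), stood at 5303 and 3375 in the wild type libraries and at 5128, 3123, 3112 and 3208 in knockout 1 to 4, with the first set 1.63-fold above the second. Icmt exons share 103 nt with Rnf207 on the opposite strand, at 30.01 to 56.5; whether counting used strand was not given in the sources used here.

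Zmpste24, the targeted gene (chromosome 4, 121059237 to 121098241, minus strand), was read in every library at a similar level. Wild type 1 and 2 held 5503 and 4148 normalized counts and knockout 1 to 4 held 5079, 3764, 3599 and 3720, on 3600 to 5257 reads. The first set lay 1.39-fold above the second. Without knowing the deleted part, a gene-wide count is no check of the genotype, so directions below are those of libraries labelled knockout. Narf (chromosome 11, 121237253 to 121255856, plus strand) stood at 1122 and 1767 in the wild type libraries and at 1265, 1891, 1839 and 1946 in knockout 1 to 4. It was lower in the first set, by 1.56-fold, the opposite of Zmpste24, Icmt and Lmna.

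**Figure D1:**
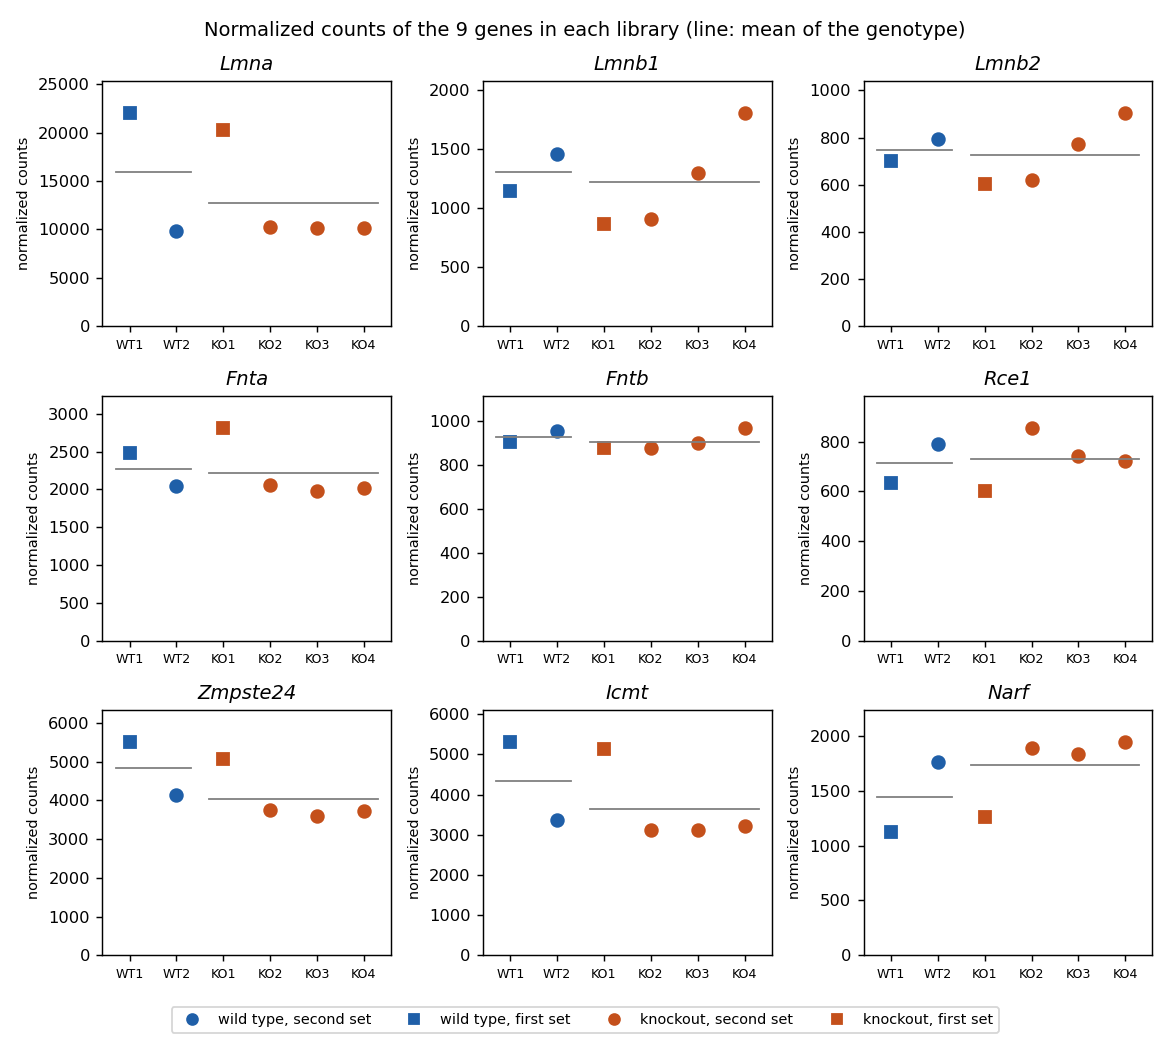
Normalized counts (y axis, from 0) of the 9 genes in the 6 libraries (x axis), with squares for the first set, circles for the second, and a line at the mean of each genotype. Lmna, Fnta, Zmpste24 and Icmt are higher in the first set, Rce1 and Narf are lower there, and the genotypes overlap in all 9 panels.

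The 2 library sets did not overlap in 6 of the 9 genes. Of all tested genes 63.4% also had sets that did not overlap, so the share among the 9 is near the background. The median absolute difference between sets was 0.41 (log2) for the 9 genes and 0.41 for all tested genes. Lmna had the largest set difference of the 9, 1.07 on the log2 scale, a size passed by 17.3% of tested genes.

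The main question was whether these genes differed between libraries labelled knockout and wild type. None passed the test across all genes, limma on log2(normalized count + 1) with Benjamini-Hochberg adjustment at 0.05, which called 0.00657% of the 15229 tested genes. Of the 9 members 0 were called, and 0 had an unadjusted p under 0.05, which 0.939% of tested genes had. EdgeR and DESeq2 on recovered reads, which called 0.00657% and 0.046% of tested genes, also called 0 of the 9, with 0 at an unadjusted p under 0.05 in either. The genotypes overlapped in all 9 genes, against 4.68% of tested genes in which they did not.

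The 95% interval of each of the 9 differences included 0. For Lmna the wild type mean was 15925 ± 8652 (SD, n = 2) normalized counts and the knockout mean 12691 ± 5030 (SD, n = 4). The log2 difference was -0.28 ± 0.43 (SE), with a 95% interval of -1.35 to 0.78 and an adjusted p of 1.00 in limma. Zmpste24 differed by -0.26 ± 0.20 (interval -0.74 to 0.22) and Icmt by -0.25 ± 0.28. Narf differed by 0.28 ± 0.26, the only member besides Rce1 (0.03 ± 0.19) with a difference above 0. For Lmnb1 the value was -0.15 ± 0.33, for Lmnb2 -0.06 ± 0.21, for Fnta -0.04 ± 0.19 and for Fntb -0.04 ± 0.11. The median of the 9 was -0.06 and that of all tested genes 0.00074. These values rest on which wild type library is used: without wild type 1 the difference of Lmna was 0.30, of Icmt 0.08, of Narf -0.05 and of Zmpste24 -0.05, and without wild type 2 they were -0.87, -0.58, 0.61 and -0.46.

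Cell type markers are given beside this comparison. All 8 endothelial markers had a log2 difference below 0 in the knockout-labelled libraries, with a median of -0.66, and of -0.43 once library set was a term. Limma called 0 of them in either fit. At an unadjusted limma p under 0.05 was 1 of the 8, beside 0.939% of tested genes. Once set was a term, 3 of the 8 were, beside 3.51% of tested genes. DESeq2 with library set called 1 of them, beside 0.328% of tested genes. This was Vwf, the von Willebrand factor gene, called as lower (DESeq2 adjusted p 0.00123). Vwf stood at 4293 and 1825 normalized counts in the wild type libraries and at 2939, 971, 942 and 819 in knockout 1 to 4. The 8 endothelial markers together did not fall in every library. Their median against the wild type of the same set was -0.73, 0.14, -0.06 and -0.52 in knockout 1 to 4. All 8 leukocyte and macrophage markers were above 0, with a median of 1.24, or 0.17 once set was a term, and limma called 0 of them. Against the wild type of the same set, their median was -0.16, 0.29, 0.93 and -0.02 in knockout 1 to 4. The part of these markers in the values of the 9 genes was not tested.

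When library set was added to the fit, the errors of the enzymes and of Lmna shrank. The sets were read from these same data, so errors and p-values of every fit with this term may be too small. Again 0 of 9 were called by limma, edgeR or DESeq2, which called 0.00657%, 0.0131% and 0.328% of tested genes. Lmna then differed by -0.02 ± 0.07 (SE; 95% interval -0.20 to 0.16). Zmpste24 had the lowest unadjusted p of the 9 in each of these fits, with a limma difference of -0.15 ± 0.06 (interval -0.30 to 0.0049). Its unadjusted p was 0.0555 in limma, 0.0619 in edgeR and 0.0403 in DESeq2, and its adjusted p was 1.00 in each. It was the only member under 0.05 in any of the 3, in DESeq2, where 3.66% of tested genes were. Icmt differed by -0.08 ± 0.06, Narf by 0.13 ± 0.07 and Fntb by -0.05 ± 0.09. Lmnb1, at -0.27 ± 0.28, and Lmnb2, at -0.13 ± 0.17, kept wide intervals, -0.98 to 0.44 and -0.56 to 0.30. Fnta (0.06 ± 0.08) and Rce1 (-0.05 ± 0.11) turned sign against the fit with genotype alone.

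**Figure D2:**
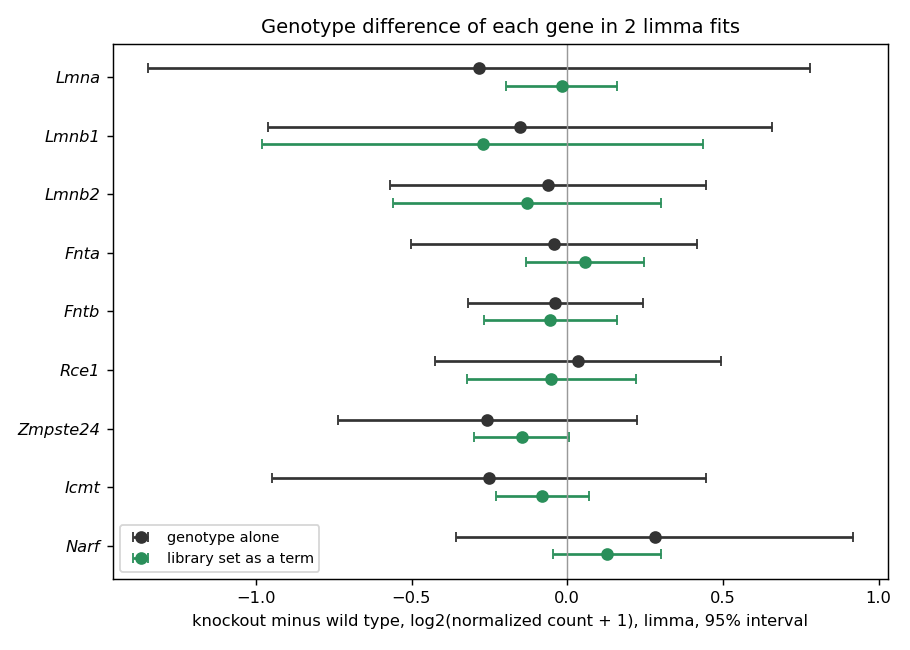
Log2 difference of knockout minus wild type (x axis) for each gene (y axis), with bars for the 95% interval, from limma with genotype alone (black) and with library set added (green). Every interval includes 0; the green interval of Zmpste24 ends at 0.0049.

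Each knockout library was also set against the wild type library of its own set. Zmpste24 was lower in 4 of 4, by log2 -0.12, -0.14, -0.20 and -0.16 in knockout 1 to 4. Icmt was lower in 4 of 4 as well, at -0.05, -0.11, -0.12 and -0.07, and Narf was higher in 4 of 4, at 0.17, 0.10, 0.06 and 0.14. All 4 differences were below 0 in 10.8% of tested genes and above 0 in 10.1%, and 3 of the 4 share wild type 2, so such a pattern is common in these data. Lmna was at -0.12 in knockout 1 and at 0.06, 0.05 and 0.05 in knockout 2, 3 and 4. Lmnb1 spread most, at -0.41, -0.68, -0.17 and 0.31, followed by Lmnb2 at -0.21, -0.36, -0.04 and 0.19.

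**Figure D3:**
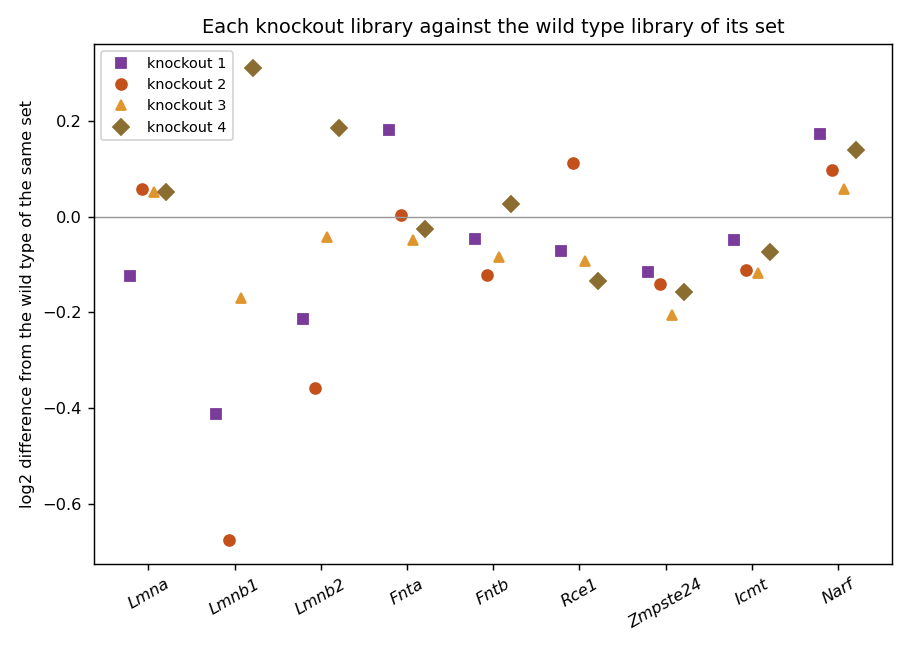
Log2 difference (y axis) of each knockout library from the wild type library of its set, for each gene (x axis). Zmpste24 and Icmt lie below 0 and Narf above 0 in all 4 libraries, and Lmnb1 ranges from -0.68 to 0.31.

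Levels of different genes were compared per kb of exon, taking the length of all annotated exons of a gene. This understates genes whose long minor transcripts are little used. Lmna had 1680 to 3776 normalized counts per kb over the 6 libraries. It was followed by Fnta (658 to 935), Icmt (589 to 1003) and Zmpste24 (504 to 770), whose ranges overlap. Lmnb1 had 291 to 610 per kb, Rce1 289 to 411 and Narf 234 to 405, again without separation. Fntb had 220.006 to 244 and Lmnb2 141 to 211, so that the beta subunit gene lay below the alpha subunit gene in every library.

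The balance of lamin genes followed the library set. Lmna took 87.3% of the summed lamin signal per kb in wild type 1 and 88.9% in knockout 1, against 71.3% in wild type 2 and 79.4%, 73.8% and 67.9% in knockout 2, 3 and 4. Lmnb1 took 7.47% to 8.96% in the first set and 13.98% to 23.8% in the second, and Lmnb2 3.62% to 3.78% and 6.57% to 8.24%. The 3 shares are parts of the same sum and so are not separate results. All separated the sets, which were read from these data, as 63.4% of tested genes did. None separated the genotypes.

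**Figure D4:**
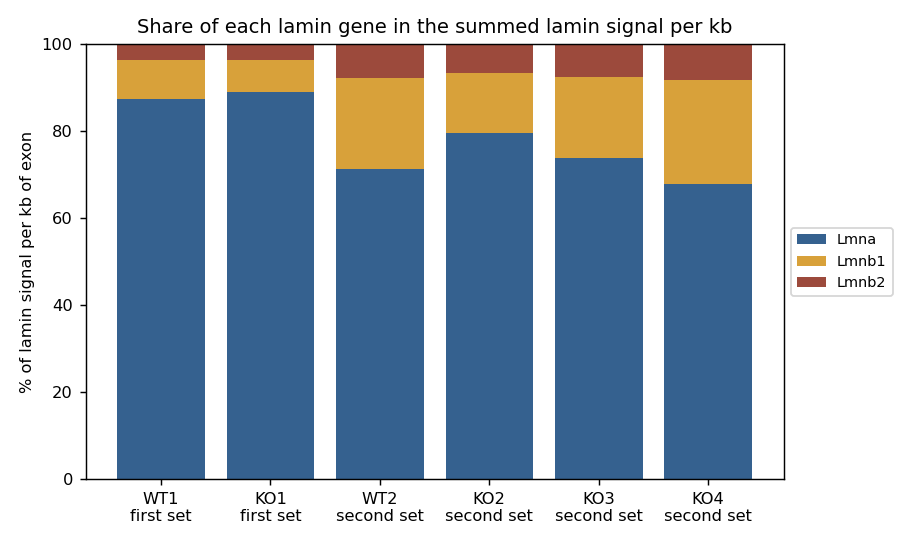
Share (y axis, %) of Lmna, Lmnb1 and Lmnb2 in their summed normalized counts per kb of exon, in each library (x axis), first set on the left. Lmna reaches 87.3% and 88.9% in the first set and 67.9% to 79.4% in the second.

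As 1 value per library, the log2 ratio of Lmna to Lmnb1 stood at 4.26 and 2.75 in the wild type libraries and at 4.55, 3.48, 2.97 and 2.49 in knockout 1 to 4. The groups differed by -0.13 (means 3.51 ± 1.07, SD, n = 2, and 3.37 ± 0.88, SD, n = 4; exact permutation test, two-sided, p = 0.933). The log2 ratio of substrate to protease genes, Lmna to Zmpste24, stood at 2.00 and 1.24 in the wild type libraries and at 1.99, 1.44, 1.496 and 1.45 in knockout 1 to 4. It differed by -0.03 (exact permutation test, two-sided, p = 0.933). With 15 labelings of 2 against 4 libraries the smallest p is 0.0667, so this design cannot pass 0.05. Both ratios turned sign in the second set alone, where knockout minus wild type was 0.23 for Lmna to Lmnb1 and 0.22 for Lmna to Zmpste24, and without wild type 1, at 0.62 and 0.35.

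Lamin B1 is known to be lower in senescent cells, so cell cycle genes are given beside the B-type lamins. Centred on its mean over the 6 libraries, Lmnb1 was at log2 -0.48 in knockout 1, -0.40 in knockout 2, -0.07 in wild type 1, 0.10 in knockout 3, 0.27 in wild type 2 and 0.58 in knockout 4. The median of 10 cell cycle genes was at -0.51, -0.63, 0.07, 0.11, 0.19 and 0.73 in the same libraries. Of the 10, 2 had the order of Lmnb1 exactly, an order shared by 0.657% of tested genes. These were Top2a, the topoisomerase gene of dividing cells, and Mcm2, of the replicative helicase. The rest departed from it, and E2f1 was highest in knockout 1, at 1571.5 normalized counts, where Lmnb1 was lowest. These 10 genes did not pass in limma either (0 called, 0 at an unadjusted p under 0.05). Of 4 senescence genes limma called 0 (0 at an unadjusted p under 0.05). Once library set was a term, limma again called 0, and 1 was at an unadjusted p under 0.05, beside 3.51% of tested genes. The log2 differences in that fit were -0.33 ± 0.11 (SE) for Cdkn2b and -0.42 ± 0.29 for Cdkn2a. They were 0.21 ± 0.10 for Glb1 and 0.09 ± 0.13 for Cdkn1a. In 3 of the 4 the library sets did not overlap, as in 63.4% of all tested genes. The first set was above the second by log2 3.13 in Cdkn2a, 2.06 in Cdkn2b and 0.33 in Cdkn1a, and by 0.22 in Glb1, where the sets overlapped. Cdkn2a, a cell cycle inhibitor gene with the largest set difference of these 4, stood at 4585 and 4385 in wild type 1 and knockout 1 and at 327 to 717 in the other 4. The part of dividing cells in the values of Lmnb1 was not tested.

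**Figure D5:**
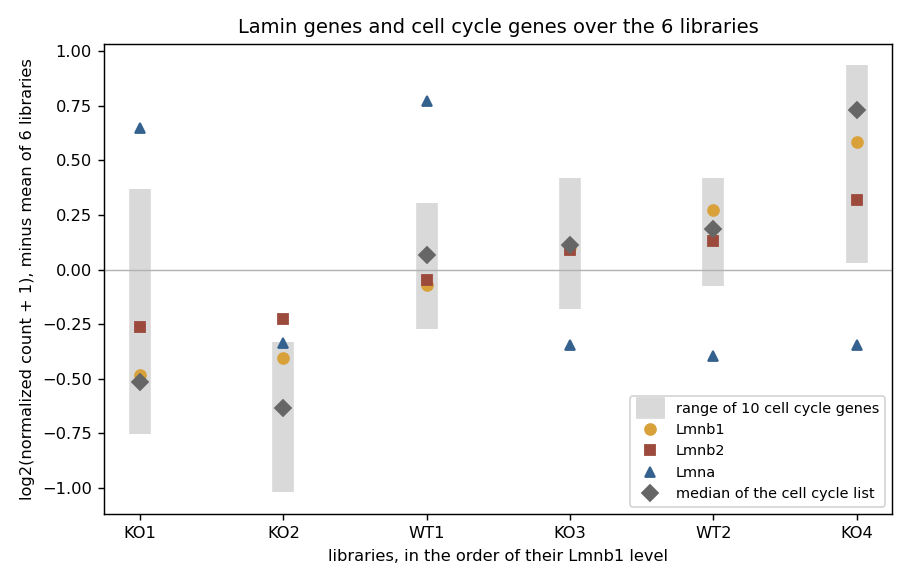
Log2(normalized count + 1) minus the mean over 6 libraries (y axis) for Lmnb1, Lmnb2, Lmna and the median of 10 cell cycle genes, with grey bars for the range of those 10 genes; libraries (x axis) are in the order of their Lmnb1 level. Lmnb1 runs from -0.48 in knockout 1 to 0.58 in knockout 4, while Lmna is at 0.77 and 0.65 in the first set and at -0.40 to -0.34 in the second.

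The wider prenylation pathway was read from 3 lists. The first held 10 genes of isoprenoid supply, the pathway that makes the farnesyl donor, with Ggps1 and Fdft1, which use that donor. Of these 0 rose and 0 fell in limma (0 at an unadjusted p under 0.05), with 9 of 10 below 0 and a median log2 of -0.20, and -0.07 once library set was a term. Ggps1, which makes the longer geranylgeranyl donor, differed by 0.11 ± 0.10, and Fdps, the farnesyl diphosphate synthase gene, by -0.54 ± 0.50 (log2, SE). The library sets did not overlap in any of the 10, as in 63.4% of all tested genes, and the median difference between sets was 0.54 (log2), beside a median absolute difference of 0.41 over all tested genes.

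The second list held 8 genes of other prenyl transferases and of the lyases that free the lipid from degraded proteins. Of these 0 rose and 0 fell (0 at an unadjusted p under 0.05), with a median of 0.05. Once library set was a term the median was 0.0045. In that limma fit 1 was at an unadjusted p under 0.05, beside 3.51% of tested genes. Pcyox1, the prenylcysteine oxidase gene, stood at 8665 and 6283 normalized counts in the wild type libraries and at 9164, 5850, 5760 and 6115 in knockout 1 to 4. Rabggtb, a subunit gene of the Rab prenyl transferase, differed by 0.05 ± 0.09 and Pcyox1l by -0.37 ± 0.19 (log2, SE), or by -0.29 ± 0.11 once library set was a term. In the third list, 17 genes of other farnesylated proteins, 0 rose and 0 fell (0 at an unadjusted p under 0.05), with 13 below 0 and a median of -0.08, or -0.02 once library set was a term. Nap1l1, a histone chaperone gene, differed by -0.03 ± 0.14, Ptp4a2, a phosphatase gene, by -0.18 ± 0.12, and Cenpe, a kinetochore motor gene, by -0.39 ± 0.42. EdgeR was not summarised for these lists; DESeq2 called 0 genes in each, whether or not library set was in the fit.

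The genes whose pattern over the 6 libraries was most like a member's were found by the root mean square difference of centred log2 values among 11374 genes. For Zmpste24 they were Klc2 (0.02), Mbd3 (0.03) and Naa38 (0.04), against a median of 0.32 over all genes compared. For Lmna they were Atp1b3 (0.04), Cflar (0.04) and Tmem63b (0.05), against 0.54. For Lmnb1 they were Shmt1 (0.05), Cenpw (0.05) and Ndc1 (0.06), against 0.43. Klc2 stood at 1294 and 974 normalized counts in the wild type libraries and at 1149, 869, 842 and 854 in knockout 1 to 4.

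Promoters are shown for Zmpste24, which was higher in the first set, and for Narf, which was lower there. RefSeq windows (GRCm38.p6), from 250 bases before to 50 after a start, were matched for 7 of the 9 genes. Capitals mark the GC box GGGCGG and the CCAAT box CCAAT on either strand, and each sequence runs 5′ to 3′ on the strand of the gene.
Zmpste24, chr4:121098161-121098460, minus strand: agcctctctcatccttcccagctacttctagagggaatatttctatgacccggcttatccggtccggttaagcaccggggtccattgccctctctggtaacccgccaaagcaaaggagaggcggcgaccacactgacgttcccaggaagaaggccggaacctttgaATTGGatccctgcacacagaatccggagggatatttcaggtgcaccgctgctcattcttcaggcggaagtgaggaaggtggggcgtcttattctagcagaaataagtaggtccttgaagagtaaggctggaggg
Narf, chr11:121236986-121237285, plus strand: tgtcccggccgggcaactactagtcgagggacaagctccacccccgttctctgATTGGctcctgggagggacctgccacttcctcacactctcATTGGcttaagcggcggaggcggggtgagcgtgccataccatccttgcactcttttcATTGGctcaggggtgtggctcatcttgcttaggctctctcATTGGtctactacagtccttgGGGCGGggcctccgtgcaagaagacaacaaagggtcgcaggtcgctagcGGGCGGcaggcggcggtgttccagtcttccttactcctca
The Narf window holds 4 CCAAT boxes and 2 GC boxes, and that of Zmpste24 holds 1 CCAAT box and no GC box. Of all 32851 windows, 37.4% hold a CCAAT box and 35.7% a GC box. The E-box CACGTG (7.15% of windows), the CRE TGACGTCA (1.79%) and the sterol element core TCACCCCAC (0.551%) were searched on both strands and are in neither window. GC boxes and CCAAT boxes did not overlap each other there. A match is a description of the letters only. Lmna has 2 windows, and the table does not tell which start was used.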

How the data were processed

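Poly(A)-selected RNA was sequenced in 6 libraries. The deposited table holds a normalized count signal per gene and library, in which the authors scaled each library's read counts by its size factor. Per the submitters' processing notes, Trimmomatic 0.36, STAR 2.6.0c (GRCm38.p6) and featureCounts of Subread 1.6.1 were used; the series design text names Trimmomatic 0.32, STAR 2.4.2a, HTSeq and DESeq2 1.10.1. Which of these was used was not given in the sources used here.

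Values were whole multiples of each library's smallest value above 0 (100% within 1e-06 of a read), which gave back the reads. Genes whose mean reached 10 (15229) were tested with limma 3.58.1 (mean trend, genotype alone) in R 4.3.3 on log2(normalized count + 1); this scale understates the folds of low genes. EdgeR 4.0.16 and DESeq2 1.42.0 on recovered reads, other pseudocounts (0.5, 5), filters, scalings, the library set or title number as a term, and leaving out each library were alternatives. Fits were tested on simulated data. Coordinates, exon lengths and overlaps came from GENCODE M21; BLAST+ 2.17.0 found no other gene matching a member at 95% over 200 nt, except Churc1 at the Fntb locus. Counting error was 1.08% to 4.13% at each member's lowest read number.

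The members and lists, and the library sets, were chosen with earlier results of these data known. All members were named; each list was represented by called genes or, with none, its 2 most abundant genes and the 1 of largest difference, of which 1 is not reported here. Pcyox1 and Klc2 were given by library after their values were seen, as were Top2a, Mcm2, E2f1, Cdkn2a, Vwf, Wt1 and Lrrn4.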

Additional observations from a re-analysis of the deposited data

Results flagged for a closer look

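In 6 of 11 values examined over the 4 knockout-labelled libraries, knockout 1 lay far from the other 3. Knockout 1 is the only knockout library of the first set. That split was read from these data, so the flags restate it and are no separate result. It stood at 5079 normalized counts for Zmpste24, 20235 for Lmna, 5128 for Icmt and 2816 for Fnta, above the others, and at 1265 for Narf, below them. Its log2 ratio of Lmna to Zmpste24, made from genes already flagged, was 1.99, above the others. The gap to the nearest library was 0.843 of the whole range for Narf to 0.994 for Lmna, past the 95% limit of Dixon's test for 4 libraries. Chance marks about 5% of groups; of all tested genes 13.8% had such a library, and in 89.3% of these it was knockout 1. Wild type 1, of the same set, was on the same side in all 5 genes.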

How the results depend on the processing

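The count of members called was 0 in limma with genotype alone and 0 under each of the 21 alternatives. With the title number as a replicate block it was also 0. Knockout 3 and 4 have no wild type of their number. The check of pairing and the differences in this fit thus rest on 2 pairs, without knockout 3 and 4. The correlations of deviations from the genotype mean in these pairs were 0.841 and 0.562. With 2 wild type libraries, the deviation of 1 is the other with its sign turned, so these values are not separate. Pairs of unlike number were not compared, so the check cannot tell pairing by number from the split into library sets. The block changed no call, though it moved Lmnb1 to -0.54 (95% interval -0.92 to -0.16, limma unadjusted p 0.0172, adjusted p 0.943). In this fit 5.13% of tested genes had an unadjusted p under 0.05. Against the wild type of its set, Lmnb1 was at -0.17 in knockout 3 and 0.31 in knockout 4. Lmnb2 moved to -0.29 (interval -0.68 to 0.11) with the block. Over the 189 differences of single members under alternatives, 21 turned sign and adjusted p ranged from 0.597 to 1.00. The library set as a term turned Rce1 to -0.051 (DESeq2 -0.048, edgeR -0.042) and Fnta to 0.058 (DESeq2 0.059, edgeR 0.065); the block turned Fnta to 0.092; the second set alone turned Lmna to 0.053 and Rce1 to -0.038. Leaving out each library in turn gave -0.46 to -0.052 for Zmpste24, -0.87 to 0.30 for Lmna, -0.36 to 0.020 for Lmnb1, -0.17 to 0.029 for Lmnb2, -0.58 to 0.075 for Icmt, -0.13 to 0.20 for Rce1, -0.18 to 0.097 for Fnta, -0.076 to 0.00073 for Fntb and -0.047 to 0.61 for Narf. The log2 ratio of Lmna to Lmnb1 ranged from -0.89 to 0.62 and that of Lmna to Zmpste24 from -0.41 to 0.35 when a library was left out. In the second set alone they were 0.23 and 0.22, and as the mean of the differences within each set 0.26 and 0.11. Apart from the fewer libraries or the added term, the cause was not tested. A single wild type library left in a fit is assumed to vary like the others. No scaling moved the median of all genes by over 0.1 (log2); TMM moved it to 0.02. Counting error was 1.08% to 4.13% at the lowest read number of each member; among knockout 2, 3 and 4 the coefficient of variation was below the counting error for Lmna and Fnta (1.81% against 2.08%) and near it for Icmt (1.67% against 1.66%).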
